A study of Sus scrofa with 4 samples.

Results

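The genes of cholesterol and fatty acid synthesis and of lipoprotein uptake were examined in granulosa cells of porcine antral follicles. Granulosa cells are the somatic layer inside the follicle wall, next to the oocyte. The genes were chosen by symbol from 31 named genes, and 30 of them were found among the 29884 rows of the count table. IDI1, an isomerase of the mevalonate pathway, had no row under its symbol and was not analysed here. All 30 passed the filter on low counts.

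Part of the cells of each follicle had been used for flow cytometry, and the remaining cells were grouped by the share in G0/G1, the part of the cell cycle before DNA synthesis. RNA-seq gave 4 libraries: 2 of the high G0/G1 group, called high here, and 2 of the low G0/G1 group, called low. The labels name the ovary and granulosa cells as the source of all 4, and they name no treatment or genotype. Whether the 2 libraries of each group stem from different animals is not stated, and the p-values therefore reflect only how far these samples lie apart, which may be technical.

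Cholesterol is built from acetyl-CoA. The mevalonate arm makes isoprenoid units, these are joined into squalene, squalene is closed into lanosterol, and a chain of reductions and demethylations turns lanosterol into cholesterol. The transcription factors SREBP1 and SREBP2 switch on these enzymes, the lipoprotein receptors and the enzymes of fatty acid synthesis when SCAP carries them out of the endoplasmic reticulum, and INSIG proteins hold SCAP back when sterols are plentiful. Granulosa cells of the growing follicle lie behind a basement membrane without capillaries, where high-density lipoprotein is the main lipoprotein that reaches them, and cholesterol is the starting material of the steroid hormones they make.

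The libraries held between 27442850 and 32674921 counts, and each of the 30 genes had at least 176 counts in every library. Levels are in CPM, the count of a gene relative to the scaled total of its library. A list of 10 granulosa markers summed to 31276 and 17631 CPM in high and 22309 and 18723 in low, and INHA and SERPINE2, the most abundant, made up most of it. The list itself was mixed. FSHR, INHBB, FOXL2, AMH, INHBA and HSD17B1, 6 of the 10, were lower in both high libraries (29.8% of all genes tested). Of the 6, 4 had an unadjusted p under 0.05 in edgeR (10.8% of all genes were lower at that p). Another 3 of the 10 were higher in both high libraries (26.8% of all genes). The median log2 fold change of the 10 was -0.79, edgeR called 0 of them, and the part of this in the lipid genes was not tested. Markers of stroma and smooth muscle, 8 genes, summed to 111 and 127 CPM in high and to 53.4 and 1577 in low, so low replicate 2 stood apart. Endothelial markers summed to 7.28 to 56.5 CPM, leukocyte markers to 0.627 to 3.76, and markers of adipocytes and hepatocytes to at most 0.351, with ADIPOQ, LEP and AHSG at 0 counts in all 4 libraries. Oocyte markers summed to 6.43 to 11.5 CPM and erythroid markers to at most 0.667. Theca markers summed to 64.5 and 91.1 CPM in high and to 97.4 and 379 in low, and CYP17A1 stood at 51.5 CPM in low replicate 2 against at most 1.02 elsewhere. INSL3 stood at 17.6 and 30.0 CPM in high and at 75.3 and 260 in low. Of the 6 theca markers 5 had a log2 fold change below 0. The other, PTCH1, was higher in both high libraries, at 35.1 and 56.9 CPM against 19.3 and 23.6. In bulk RNA, fewer cells of a type and less RNA per cell cannot be told apart. Of 15 S phase and mitosis genes, 15 were lower in both high libraries (29.8% of all genes tested). Their sums were 1227 and 394 CPM in high and 3241 and 2907 in low. High replicate 1 lay above high replicate 2 in 15 of the 15 (53% of all genes), with a median log2 difference of 2.04. Low replicate 1 lay above low replicate 2 in 14 of the 15 (49.4%), with a median of 0.21. The part of this in the lipid genes was not tested. The groups were made by G0/G1 share, so the difference of the S phase and mitosis genes between groups follows from the grouping.

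Single genes of the pathway stood higher in high and others lower, and the pathway as a whole was not tested. HMGCS1, MSMO1, INSIG2 and LRP8 stood higher in high G0/G1 cells, by 2.33-fold, 2.29-fold, 2.23-fold and 3.71-fold in the fitted values, while MVK, PMVK, EBP, DHCR7 and SREBF1 stood lower. Those 9 genes had an unadjusted p under 0.05 in edgeR's quasi-likelihood test, 4 higher and 5 lower. Of all 14352 genes tested 9.92% were higher and 10.8% lower at that p, so both counts lie near the background. With adjustment over all genes, edgeR called 0 of the 30 and 0% of all genes in either direction, and the adjusted p of the 30 genes ran from 0.169 to 0.807. Limma-voom also called 0, and had 5 higher (9.85% of all genes) and 6 lower (11.9%) at an unadjusted p under 0.05. DESeq2, which called 5.19% of the tested genes higher and 4.91% lower, called HMGCS1, MSMO1, INSIG2 and LRP8 higher and 0 lower.

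The libraries of a group did not overlap those of the other in 19 of the 30 genes. In 9 genes the high libraries were the upper 2 (26.8% of all genes tested) and in 10 they were the lower 2 (29.8%). The log2 fold change, high minus low, was above 0 in 17 genes (49.4% of all genes tested) and below 0 in 13 (50.6%), with a median of 0.28 against -0.01 over all genes tested. The counts by p-value and the median leaned on single libraries. At an unadjusted p under 0.05 leaving out high replicate 1 gave 4 higher and 9 lower, where all genes gave 11.9% and 15.2%. Leaving out high replicate 2 gave 9 higher and 1 lower (7.83% and 8.60% of all genes). Leaving out low replicate 1 gave 6 higher and 0 lower (6.46% and 4.81%), and leaving out low replicate 2 gave 1 higher and 3 lower (5.54% and 5.36%). Without high replicate 1 the median log2 fold change was -0.39, and edgeR called DHCR7 and SOAT1 lower, with 3.92% of all genes called lower and 2.41% higher. DESeq2 then called LRP8 higher and ACLY, DHCR7, SCD, SOAT1 and SREBF1 lower, with 2224 of 20017 genes called in either direction. With high replicate 2 left out DESeq2 called 6 of the 30 higher, HMGCS1, LRP8, MSMO1, SC5D, SQLE and STARD4 (4.30% of all genes in either direction). With low replicate 1 left out it called 2 higher, LRP8 and NSDHL (2.05%), and with low replicate 2 left out 0 (1.76%). The DESeq2 shares with 1 library left out were over all rows with a count in the libraries kept, 19775 to 20017 rows. Those rows were not filtered on low counts, so these shares have a larger base than the DESeq2 shares given with all libraries. The part of stromal and theca cells in the differences between the groups was not tested. Without low replicate 2, the library with the high stromal sum, the log2 fold changes of HMGCS1, MSMO1, LRP8 and DHCR7 were 1.02, 0.98, 1.65 and -1.27. By over 1.5 times smaller in that setting were ACAT2 at 0.30, MVD at 0.016, FDFT1 at 0.065, NSDHL at 0.47, INSIG1 at 0.31, STARD4 at 0.82 and FASN at 0.0054. Larger by over 1.5 times were TM7SF2 at 1.64, SCARB1 at -1.48 and SCD at -0.93.

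**Figure D1:**
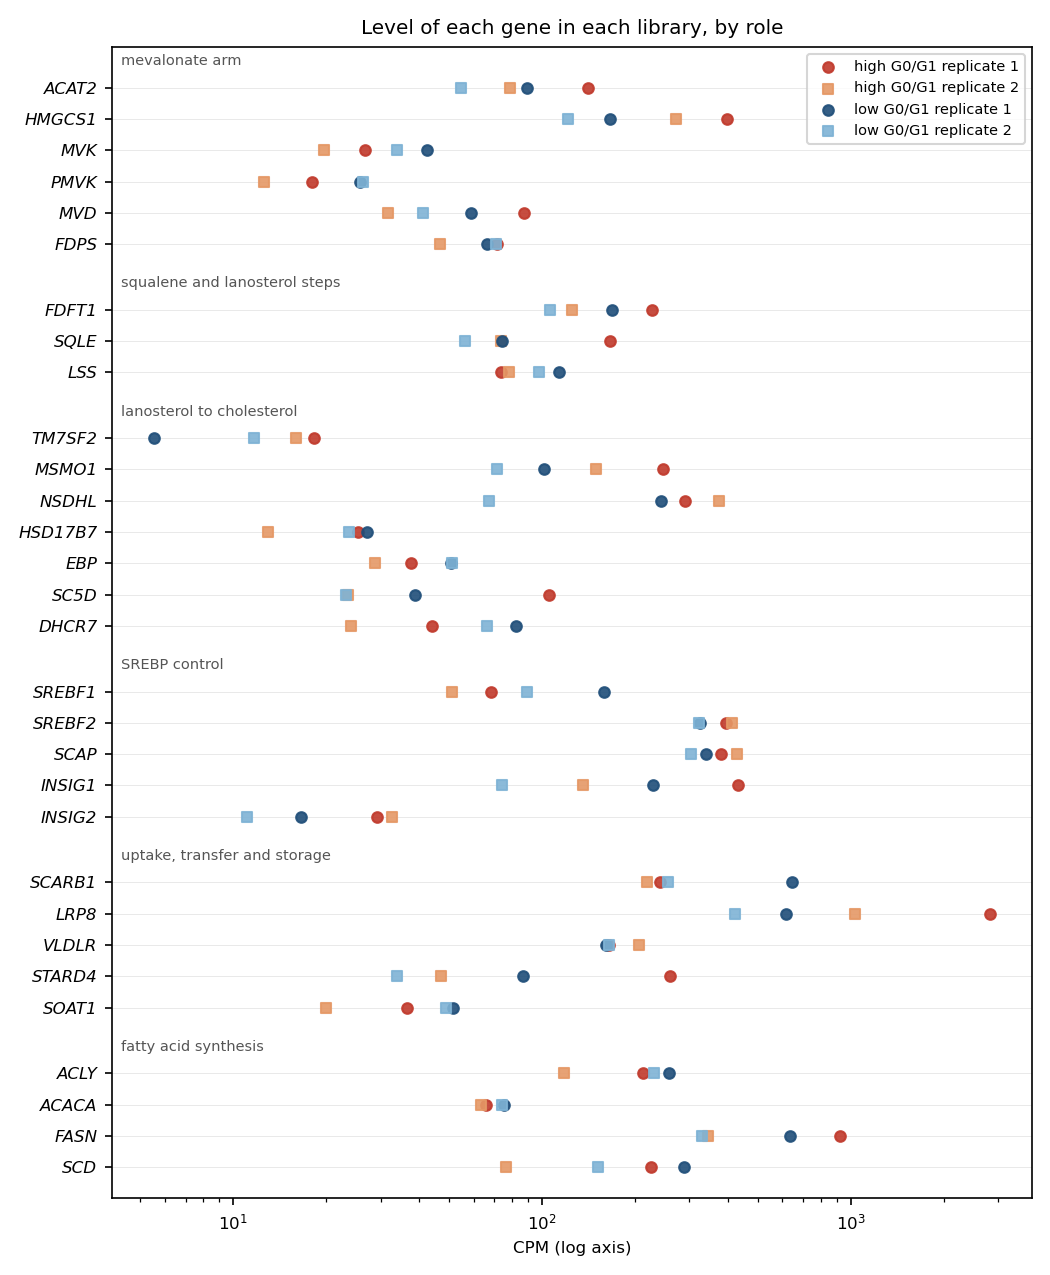
Level of each of the 30 genes in each library, in CPM on a log axis, grouped by role, with 1 point per library. LRP8 reaches 2829 CPM in high replicate 1, and high replicate 1 (red circles) lies to the right of high replicate 2 (orange squares) in 24 of the 30 genes.

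In the mevalonate arm 1 gene was higher (26.8% of all genes tested) and 2 were lower (29.8%) without overlap, and 3 overlapped between the groups. HMGCS1 (chromosome 16, 27936225 to 27957261 in Sscrofa11.1), which condenses acetyl-CoA units into HMG-CoA, held 397 and 271 CPM in high, against 166 and 121 in low. The groups did not overlap, and high replicate 1 was the highest. Its log2 fold change was 1.22 ± 0.30 (SE, edgeR adjusted p = 0.169), and DESeq2's adjusted p was 0.0150. Leaving out 1 library at a time gave HMGCS1 values from 0.91 to 1.52 on this scale.

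MVK (chromosome 14, 41320790 to 41357437), mevalonate kinase, stood at 26.6 and 19.6 CPM in high and at 42.3 and 33.8 in low. PMVK (chromosome 4, 94861500 to 94913743), the kinase of the next step, stood at 17.9 and 12.6 CPM against 25.8 and 26.3. For both kinases the 2 high libraries lay below the 2 low ones, so they went the other way from HMGCS1 in the same arm. Their log2 fold changes were -0.72 ± 0.27 and -0.77 ± 0.28 (SE, edgeR adjusted p = 0.230 and 0.219). The other 3 genes of the arm overlapped between the groups: ACAT2, the thiolase that feeds HMGCS1, MVD, the decarboxylase that makes the first isoprenoid unit, and FDPS, which makes farnesyl diphosphate. Their log2 fold changes were 0.61, 0.25 and -0.22. The end of ACAT2 overlaps TCP1, a chaperonin gene with 175 and 184 CPM in high against 341 and 258 in low. Since the strand setting of the counting is not given in the sources used here, reads of such a pair may be divided in ways that cannot be told. Over the 6 genes of the arm the median log2 fold change was 0.02.

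Squalene and lanosterol synthesis showed no shared direction. SQLE, squalene epoxidase, a controlled step of the pathway, had 166 CPM in high replicate 1, more than in the other 3 libraries, which held 73.5, 74.2 and 56.3. FDFT1, squalene synthase, also had its highest level in high replicate 1 and overlapped between the groups. LSS, which closes the ring to lanosterol, lay lower in both high libraries, at 73.4 and 77.9 CPM against 113 and 97.6. It is placed on no chromosome in the RefSeq table. Without high replicate 1 the log2 fold change of SQLE moved from 0.88 to 0.16, and that of FDFT1 from 0.35 to -0.15.

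Of the 7 genes from lanosterol to cholesterol, 3 were higher (26.8% of all genes tested) and 2 lower (29.8%) without overlap, and 2 overlapped. MSMO1 (chromosome 8, 43726834 to 43745784), a methylsterol monooxygenase that helps remove methyl groups from the sterol, stood at 246 and 149.7 CPM in high and at 101 and 71.4 in low. The groups did not overlap, with a log2 fold change of 1.20 ± 0.33 (SE, edgeR adjusted p = 0.180, DESeq2 adjusted p = 0.0333). NSDHL (chromosome X, 123906130 to 123921935), the dehydrogenase that acts with MSMO1, stood at 291 and 374 CPM in high and at 242 and 67.2 in low. Here low replicate 1 lay close to the high libraries and low replicate 2 was far below. The log2 fold change of NSDHL was 1.105 ± 0.61 (SE, edgeR adjusted p = 0.349), 0.47 without low replicate 2 and 2.37 without low replicate 1. HSD17B7, the ketoreductase of the same complex, overlapped between the groups at a log2 fold change of -0.41.

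DHCR7 (chromosome 2, 2377352 to 2391846), the reductase that finishes cholesterol, stood at 44.1 and 24.1 CPM in high and at 82.6 and 66.5 in low. Both high libraries lay below both low ones, with a log2 fold change of -1.13 ± 0.35 (SE, edgeR adjusted p = 0.194, DESeq2 adjusted p = 0.0674). In DHCR7 it was -1.64 without high replicate 1 (edgeR adjusted p = 0.0438) and -0.76 without high replicate 2 (edgeR adjusted p = 0.262). EBP (chromosome X, 42670592 to 42678571), the sterol isomerase upstream of it, stood at 37.7 and 28.7 CPM in high and at 50.8 and 51.0 in low. It too was lower in both high libraries, at a log2 fold change of -0.62 ± 0.23 (SE, edgeR adjusted p = 0.230). TM7SF2, a sterol reductase, was higher in both high libraries, at 18.2 and 16.0 CPM against 5.52 and 11.7. SC5D, a sterol desaturase, had 106 CPM in high replicate 1 and between 23.2 and 38.9 in the other 3 libraries. The difference of SC5D was 1.06 on the log2 scale with all libraries and -0.41 without high replicate 1. The median of these 7 genes was 0.99, and -0.41 without high replicate 1.

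**Figure D2:**
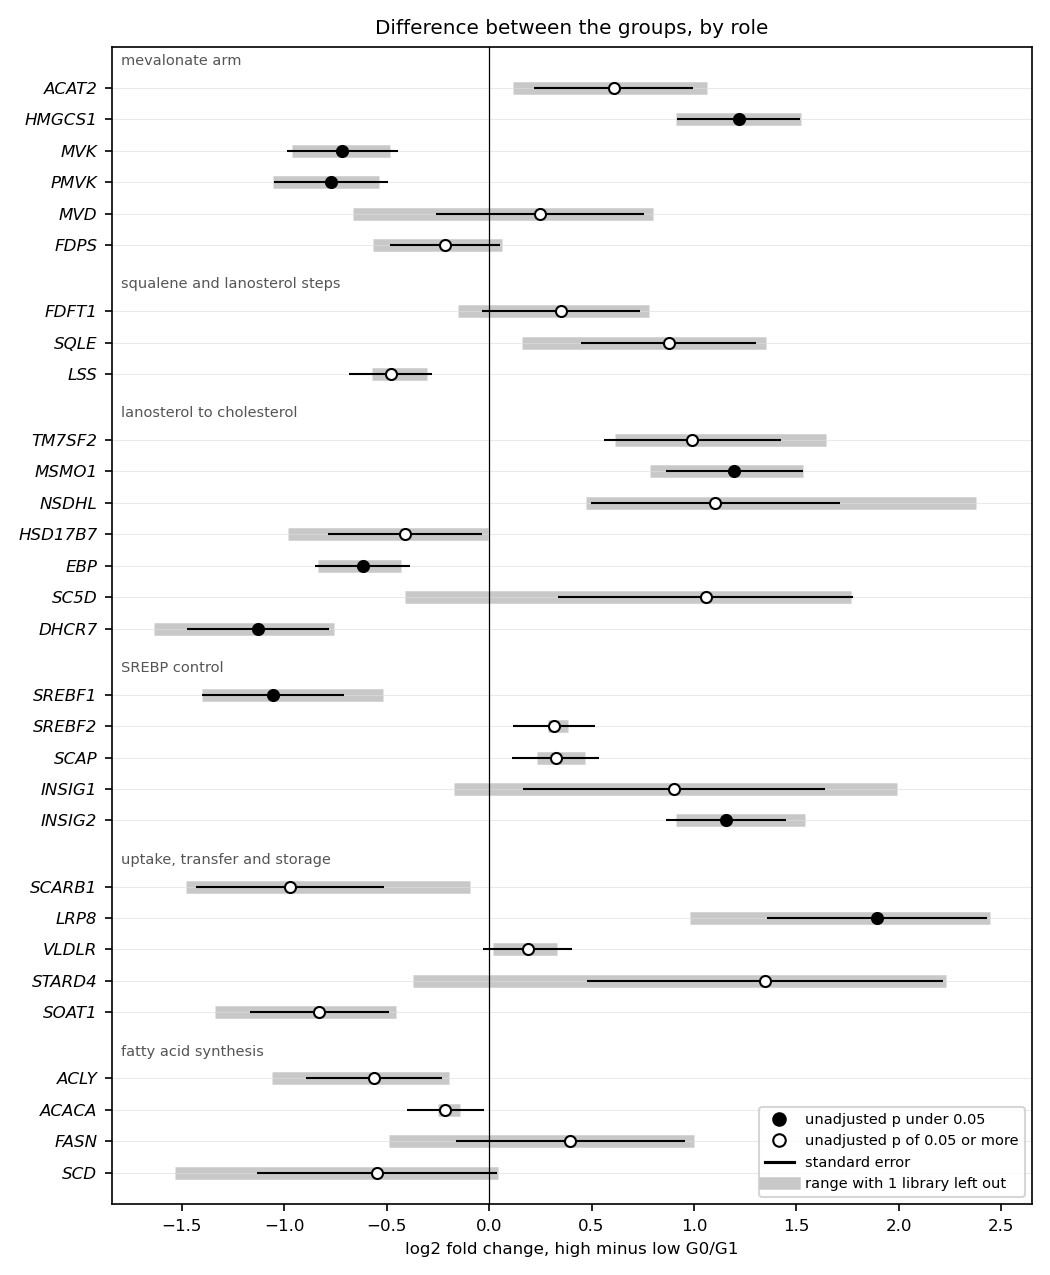
Log2 fold change of each gene, high minus low G0/G1, from edgeR's quasi-likelihood fit, with its standard error (black line) and the range of values with 1 library left out (grey bar). Filled points have an unadjusted p under 0.05. Of these, HMGCS1, MSMO1, INSIG2 and LRP8 lie to the right of 0 and MVK, PMVK, EBP, DHCR7 and SREBF1 to the left, while the grey bars of MVD, FDFT1, SC5D, INSIG1, STARD4, FASN, FDPS and SCD cross 0.

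Among the regulators, the SREBP genes differed from each other. SREBF1 (chromosome 12, 60733967 to 60750951), which encodes SREBP1, the factor most tied to fatty acid synthesis, stood at 68.3 and 50.9 CPM in high and at 159 and 89.2 in low. Both high libraries lay below both low ones, and low replicate 1 stood well above low replicate 2. SREBF1 had a log2 fold change of -1.06 ± 0.35 (SE, edgeR adjusted p = 0.202) and -0.52 without low replicate 1. SREBF2 (chromosome 5, 6719484 to 6784724), which encodes SREBP2, the factor most tied to cholesterol synthesis, stood at 394 and 412 CPM in high and at 324 and 323 in low. The libraries of each group were nearly equal. Its log2 fold change of 0.32 ± 0.20 (SE, edgeR adjusted p = 0.411) ranged from 0.29 to 0.38 with 1 library left out.

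SCAP (chromosome 13, 30253262 to 30320625), the escort of the SREBPs, had a pattern like that of SREBF2, at 379 and 427 CPM in high and 339 and 305 in low. SCAP had a log2 fold change of 0.32 ± 0.21 (SE, edgeR adjusted p = 0.425). INSIG1 (chromosome 18, 2885494 to 2898758), a brake on SCAP that is itself a target of the SREBPs, stood at 432 and 136 CPM in high and at 229 and 74.1 in low. In INSIG1 the libraries of a group differed more than the groups did, by 3.19-fold in high and 3.10-fold in low, and the groups overlapped. The log2 fold change of INSIG1 was 0.90 ± 0.74 (SE, edgeR adjusted p = 0.517) and -0.17 without high replicate 1.

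INSIG2, the other brake, stood at 29.1 and 32.6 CPM in high and at 16.6 and 11.097 in low, with a log2 fold change of 1.16 ± 0.29 (SE, edgeR adjusted p = 0.171, DESeq2 adjusted p = 0.0277). Unlike INSIG1, its high libraries were close together and lay above both low ones. RefSeq gives the symbol INSIG2 to 2 loci, the protein-coding gene on chromosome 15 (23676684 to 23699591) and a pseudogene on chromosome 7 (52466406 to 52467387) that lies within PDE8A, a phosphodiesterase gene. The count table has 1 row under this symbol, so which locus its reads came from cannot be told. PDE8A stood at 51.6 and 44.1 CPM in high and at 64.2 and 65.5 in low, the opposite direction to INSIG2.

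The lipoprotein receptors behaved differently from each other. LRP8 (chromosome 6, 158905464 to 158984743), also called ApoER2, a receptor of the low-density lipoprotein receptor family that binds apolipoprotein E and reelin, stood at 2829 and 1032 CPM in high and at 616 and 423 in low. The groups did not overlap, and high replicate 1 stood far above the other 3 libraries. Its log2 fold change was 1.89 ± 0.54 (SE, edgeR adjusted p = 0.181, DESeq2 adjusted p = 0.00826), the largest of the 30, and it was 0.98 without high replicate 1 and 2.45 without high replicate 2. LRP8 held 2829 of the 8236 CPM that the 30 genes summed to in high replicate 1. VLDLR, the very-low-density lipoprotein receptor and the closest relative of LRP8 here, ran from 161 to 206 CPM over the 4 libraries, with a log2 fold change of 0.19 ± 0.22 (SE, edgeR adjusted p = 0.654).

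SCARB1 (chromosome 14, 28301421 to 28393568), the high-density lipoprotein receptor, stood at 241 and 219 CPM in high and at 645 and 256 in low. Low replicate 1 alone was far above the rest, and low replicate 2 lay just above the high libraries. The log2 fold change of SCARB1 was -0.97 ± 0.46 (SE, edgeR adjusted p = 0.297), and it was -0.09 without low replicate 1. SOAT1, which esterifies cholesterol for storage, was lower in both high libraries, at 36.6 and 19.9 CPM against 51.5 and 48.8, with a log2 fold change of -0.83 ± 0.34 (SE, edgeR adjusted p = 0.252). In SOAT1 the log2 fold change was -1.34 without high replicate 1 (edgeR adjusted p = 0.0472) and -0.45 without high replicate 2 (edgeR adjusted p = 0.379). STARD4, a soluble sterol carrier, stood at 261 and 47.0 CPM in high and at 87.0 and 33.9 in low, so that 1 high library lay above and the other between the low ones. Its log2 fold change of 1.35 ± 0.87 (SE, edgeR adjusted p = 0.417) was -0.37 without high replicate 1.

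Of the 4 fatty acid synthesis genes, 0 had an unadjusted p under 0.05, and their median log2 fold change was -0.38. This median was -0.77 without high replicate 1, -0.075 without high replicate 2 and -0.048 without low replicate 1. FASN (chromosome 12, 922405 to 937560), fatty acid synthase, stood at 924 and 346 CPM in high and at 634 and 330.5 in low. Replicate 1 was the higher library in each group, and the second libraries of the groups were nearly equal. FASN had a log2 fold change of 0.40 ± 0.56 (SE, edgeR adjusted p = 0.718), and -0.49 without high replicate 1. SCD, which makes monounsaturated fatty acids, overlapped between the groups with the same order inside each, at 226 and 76.6 CPM in high and 289 and 152 in low. ACLY, which supplies cytosolic acetyl-CoA from citrate, stood at 213 and 118 CPM against 257 and 230.2. ACACA, acetyl-CoA carboxylase, differed little, at 65.8 and 63.3 CPM against 75.3 and 74.3. Both ACLY and ACACA were lower in the high libraries without overlap, at log2 fold changes of -0.56 ± 0.33 and -0.21 ± 0.19 (SE, edgeR adjusted p = 0.378 and 0.550).

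The libraries within a group differed in many of these genes, and more often than not in the same sense in both groups. High replicate 1 was above high replicate 2 in 24 of the 30 genes (53% of all genes tested), and low replicate 1 was above low replicate 2 in 25 of the 30 (49.4% of all genes). Both held in 20 of the 30, against 30.4% of all genes. With 24 and 25 of the 30 in the single pairs, most genes had to be in both. The count of 20 therefore does not show that the pairs are linked. VLDLR went below in both pairs. The numbers of the replicates follow the order of listing. The libraries also carry codes that the labels do not explain. The codes of high replicate 2 and low replicate 2 both begin with W, those of high replicate 1 and low replicate 1 with Q and S. Whether a high and a low library share an animal or a day is not known, and the shared sense is a description of these 4 libraries with no test. The median difference on the log2 scale, computed with a prior count of 2, was 0.67 between the high libraries and 0.43 between the low ones, against 0.05 and -0.01 over all genes tested.

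High replicate 1 was above high replicate 2 by 2-fold or more in 8 of the 30 genes (9.63% of all genes): STARD4, SC5D, INSIG1, SCD, MVD, LRP8, FASN and SQLE. It was below by that much in 0 of the 30 (10.2% of all genes). STARD4 had the widest gap, 5.54-fold, followed by SC5D at 4.49-fold. Low replicate 1 was above low replicate 2 by 2-fold or more in 4 genes (4.77% of all genes), NSDHL at 3.60-fold, INSIG1 at 3.10-fold, STARD4 at 2.57-fold and SCARB1 at 2.52-fold, and below by that much in 1, TM7SF2 (8.80% of all genes). INSIG1 and STARD4 were the genes on both lists. In SREBF2 and SCAP, in contrast, the ratio of replicate 1 to replicate 2 was 0.958 and 0.886 in high and 1.004 and 1.11 in low, and in VLDLR it was 0.798 and 0.978. The gap between the high libraries exceeded the fitted difference between the groups in 14 of the 30 genes (47.4% of all genes), and the gap between the low libraries did so in 10 (38.1%).

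**Figure D3:**
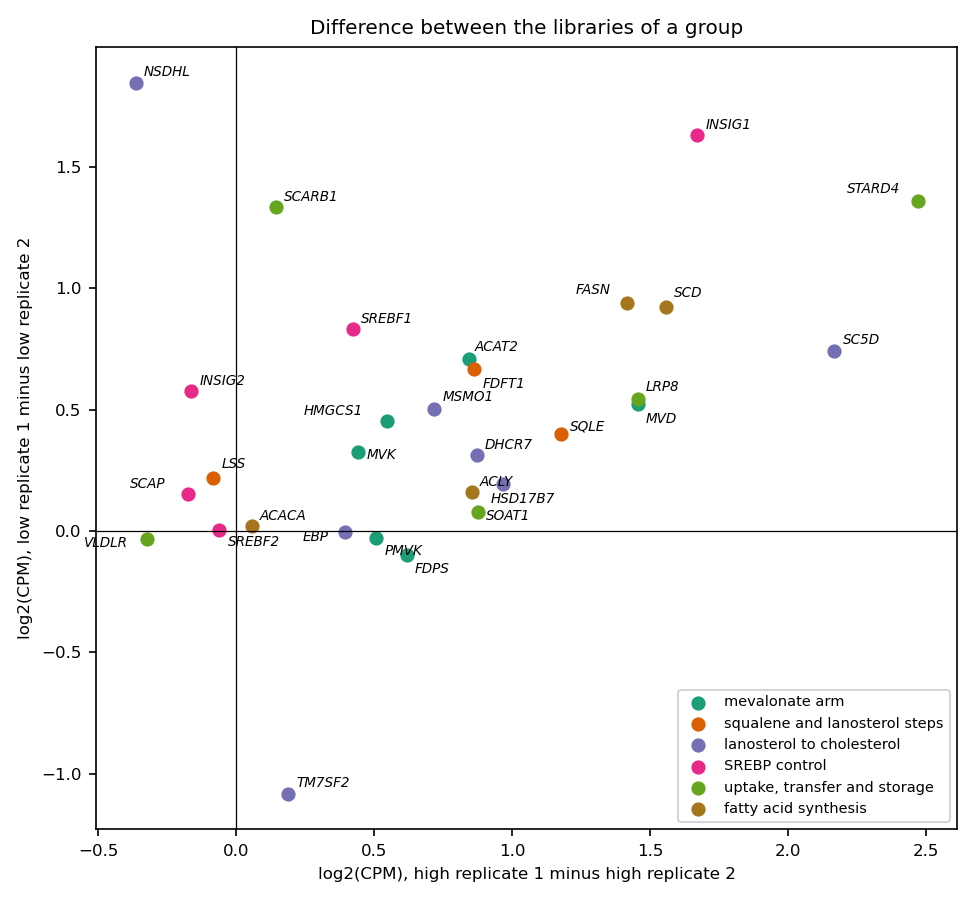
Difference between the libraries of a group for each of the 30 genes, as log2 of the CPM ratio of replicate 1 to replicate 2, in the high group (x axis) and the low group (y axis), coloured by role. Most points, 20 of 30, lie above 0 on both axes, with STARD4 and INSIG1 farthest out, and VLDLR is the point to the lower left.

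Summed over the 30 genes, the level was 8236 and 4551 CPM in high, and 5238 and 3439 in low. Without LRP8 the sums were 5408 and 3519 CPM in high and 4621 and 3016 in low. The sum was thus larger in replicate 1 of each group, and the groups overlapped. High replicate 1 was the highest library in 13 of the 30 genes (21.1% of all genes tested) and low replicate 1 in 10 (24.6%). High replicate 2 was the lowest in 13 and low replicate 2 in 14, and the share of all genes was not computed for the lowest library.

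The wider lipid pathways were described with 87 further genes in 5 lists, of which 80 were tested. Of these, 7 were higher (9.92% of all genes tested) and 4 lower (10.8%) at an unadjusted p under 0.05 in edgeR. After adjustment 0 were called (0% of all genes). DESeq2 called 3 higher (5.19% of all genes tested) and 3 lower (4.91%). Their median log2 fold change was -0.04. High replicate 1 was above high replicate 2 in 40 of these 80 genes and low replicate 1 above low replicate 2 in 43, so the order seen in the 30 genes was near the background here. Their median differences between the libraries of a group were 0.0076 in high and 0.078 in low.

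Among isoprenoid enzymes beyond the 30 genes, 2 of 12 tested were higher (9.92% of all genes) and 1 lower (10.8%) at an unadjusted p under 0.05. The lower was PDSS1, which builds the tail of coenzyme Q, at 2.38 and 1.40 CPM in high and 9.50 and 6.90 in low. Its log2 fold change was -2.11 ± 0.48 (SE, edgeR adjusted p = 0.166, DESeq2 adjusted p = 0.00259). The higher ones were ACAT1, the mitochondrial thiolase, at 0.64 ± 0.21, and NUS1, a subunit of the dolichol-making enzyme, at 0.66 ± 0.26. In the list of cholesterol transfer, efflux and ester turnover, 1 of 19 was higher (9.92% of all genes) and 0 lower (10.8%) at the same p. The higher one was GRAMD1B, a sterol transfer protein of the endoplasmic reticulum, at a log2 fold change of 0.62 ± 0.21. In the list of SREBP processing and LXR genes, 0 of 12 tested were higher (9.92% of all genes) and 0 lower (10.8%) at that p in edgeR. The median log2 fold change of that list was 0.26.

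Of the genes that handle fatty acids, single ones stood higher and single ones lower. FABP3, a cytosolic fatty acid binding protein, stood at 14.3 and 8.53 CPM in high and at 109.7 and 70.1 in low, with a log2 fold change of -2.98 ± 0.39 (SE, edgeR adjusted p = 0.125, DESeq2 adjusted p = 4.8e-09). SLC27A1, a fatty acid transport protein, stood at 96.4 and 77.2 CPM against 32.3 and 32.9, and LPIN1, a phosphatidate phosphatase, at 26.5 and 28.9 against 6.43 and 11.2. So FABP3 stood lower in both high libraries while SLC27A1 stood higher in both. In their list of 17 tested genes 2 were higher (9.92% of all genes) and 1 lower (10.8%) at an unadjusted p under 0.05. Among 20 tested genes of fatty acid elongation, activation and supply, 2 were higher and 2 lower, beside the same shares of all genes. ACSL4, which activates arachidonate and other long polyunsaturated fatty acids, stood at 241 and 257 CPM in high and at 111 and 84.0 in low (edgeR adjusted p = 0.142, DESeq2 adjusted p = 7.6e-04). SLC25A1, the mitochondrial citrate carrier that feeds ACLY, stood at 47.4 and 35.5 CPM against 101 and 96.0 (edgeR adjusted p = 0.151, DESeq2 adjusted p = 0.00333). ME1, which makes NADPH for lipid synthesis, was the other higher gene and ELOVL4, an elongase of very long chains, the other lower one.

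**Figure D4:**
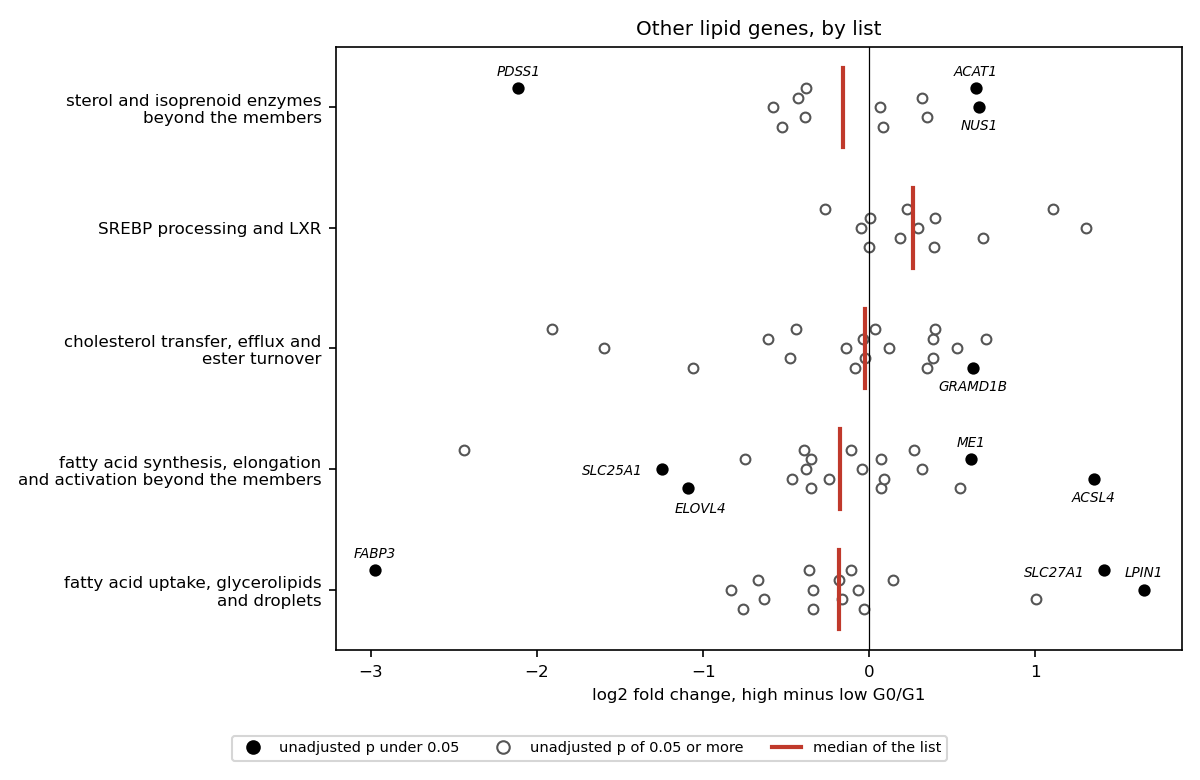
Log2 fold change, high minus low G0/G1, of the 80 tested genes in 5 lists of other lipid genes, with 1 point per gene and a red bar at the median of each list. Filled and named points have an unadjusted p under 0.05 in edgeR, and FABP3 at -2.98 lies farthest from 0.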

How the data were processed

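Total RNA of 4 libraries, 2 per group, was sequenced on libraries made by Illumina protocols, per the labels' protocols. The authors deposited read counts per gene symbol. The submitters' processing notes name HISAT2 and the build Sscrofa11.1. Not given in the sources used here: the counter, annotation, strand setting and filters. 0 columns were left without a sample.

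Of 29884 rows, 20394 had a count and 14352 passed edgeR's filterByExpr (minimum count 10, minimum total 15). Counts were scaled by TMM and tested with edgeR 4.0.16's quasi-likelihood test in R 4.3.3, with Benjamini-Hochberg adjustment over all genes tested and a threshold of 0.05. The common biological coefficient of variation was 0.371, with 2 residual and 3.20 prior degrees of freedom. An SE is the absolute log2 fold change divided by the square root of F. CPM uses the TMM-scaled library sizes, and log2 CPM a prior count of 2. Intervals from depth cover counting error only. A count of 0 allows up to 3 counts, or 0.0918 to 0.109 CPM. The scripts were tested on simulated data.

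Alternatives were DESeq2 1.42.0, limma 3.58.1 (voom), RLE factors, library totals alone, no filter, at least 50 counts in 2 libraries, and leaving out each library. The 30 genes, the other lists, and the tests were chosen with earlier results of these data known. Each of the 30 genes is named. Values per library are given at least for those with an unadjusted p under 0.05, or with groups that did not overlap and an absolute log2 fold change of 1 or more, and for SREBF1, SREBF2, SCAP, INSIG1, SCARB1 and FASN. From each other list up to 5 genes with the smallest unadjusted p and an average log2 CPM of at least 1 may be named. TCP1, PDE8A and the markers given by name were chosen after their values were seen. Coordinates are from RefSeq's table for Sscrofa11.1, in which 30 symbols were matched. A gene of the other lists is not reported here and was left out of their counts.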

Additional observations from a re-analysis of the deposited data

How the results depend on the processing

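With 2 libraries a group, the count of calls rested on the test and on single libraries. Over all genes edgeR called 0, DESeq2 1462 and edgeR with no filter on low counts 5, and edgeR with 1 library left out called 0 to 954. Of the 30 genes DESeq2 called 4, and edgeR with 1 library left out 0 to 2. DESeq2 with 1 library left out, an alternative chosen after seeing the data, called 2224 and 850 of all genes without high replicates 1 and 2, 409 and 350 without low replicates 1 and 2, and 0 to 6 of the 30. A lone library in a group is assumed there to vary like the other group. The count at an unadjusted p under 0.05 ran from 1 to 9 higher and from 0 to 9 lower with 1 library left out, and the median log2 fold change of the 30 genes from -0.39 to 0.43.

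The median of the mevalonate arm was -0.074 with limma-voom, -0.020 with library totals alone and -0.61 to 0.43 with 1 library left out. Without high replicate 1 the medians of squalene and lanosterol synthesis, of the lanosterol to cholesterol steps and of uptake, transfer and storage were -0.15, -0.41 and -0.37. Over the libraries left out these 3 medians ranged from -0.15 to 0.78, from -0.41 to 0.91 and from -0.37 to 0.24. The medians of SREBP control and of fatty acid synthesis ranged from 0.29 to 0.47 and from -0.77 to -0.048. Leaving out each library in turn, the log2 fold change ran from -0.66 to 0.80 in MVD, -0.15 to 0.78 in FDFT1, -0.41 to 1.77 in SC5D, -0.17 to 1.99 in INSIG1, -0.37 to 2.23 in STARD4 and -0.49 to 0.998 in FASN, the negative value being that without high replicate 1. It ran from -0.56 to 0.062 in FDPS, above 0 without high replicate 2. In SCD it ran from -1.53 to 0.044, above 0 without low replicate 1 and, at 0.033, without high replicate 2. The cause was not tested. With RLE factors, and with at least 50 counts in 2 libraries, the results for the 30 genes and their role groups kept their direction and side of the threshold. The median log2 fold change of all genes tested, -0.0090, lay at 0.017 and 0.0029 in these settings. No scaling turned the direction of any of the 30 genes. No paired analysis was possible because the labels give the groups no shared replicate numbers.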
